A study of Mus musculus with 2 samples.

Results

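The cells described here are myoblasts, the embryonic muscle cells that have switched on Myod1 or Myog, in the hindlimb of the mouse at embryonic stage E11.5. A cell barcode was taken as a myoblast when it held at least 2 UMIs (unique molecular identifiers, each counting 1 captured RNA molecule) of Myod1 and Myog together. It also needed at least 1000 detected genes, at most 10% of UMIs from mitochondrial genes, and no UMI of Epcam, Cdh5 or Csf1r, which mark epithelium, blood vessel lining and macrophages. The rule found 175 myoblasts among 24473 kept barcodes, 174 of 17790 in one library and 1 of 6683 in the other. They were set beside muscle progenitors, defined as barcodes with at least 3 UMIs of Pax3, Pax7 and Lbx1 together and none of Myod1 or Myog, of which there were 329 and 77. Both groups were thus chosen by the measured counts of Myod1, Myog, Pax3, Pax7 and Lbx1, and the values of these genes are descriptions. The counts of those genes also set which cells fall on either side of each contrast below, and no contrast was tested.

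Each library was a single-cell transcriptome of the hindlimbs of 1 FVB embryo at E11.5, dissociated with collagenase II. Both embryos carried a pair of reporter genes at the H11 insertion site. In each pair the ZRS, the limb enhancer of Shh, drove mCherry, and the variant ZRS404G>A drove eGFP. The genotype label of the library dual-enSERT-1 is H11_ZRS-mCherry/ZRS404G>A-GFP, and that of dual-enSERT-2 adds a part B at each end and a part SI between the reporters, which the labels do not explain. Neither label names an untreated or reporter-free embryo. With 1 embryo per construct there is no replicate, so construct, embryo and preparation cannot be told apart and no p-value is given. Levels are CPM, a gene's UMIs scaled to 1000000 UMIs, pooled over the cells of a group. Brackets after a level or ratio give its exact 95% interval, which covers counting error only.

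Limb muscle comes from cells that leave the somites and enter the limb bud, guided among others by the receptor Met and marked by the transcription factors Pax3 and Lbx1. The basic helix-loop-helix factors Myf5 and Myod1 commit these cells to the muscle lineage. Myogenin, the product of Myog, then switches on the genes of the contractile apparatus as the cells leave the cell cycle and prepare to fuse. These factors bind DNA at the E-box, a short motif with the letters CANNTG. In GRCm39, Myod1 lies at chr7:46025870-46028526 and Myog at chr1:134217707-134220287, both on the plus strand. Among the genes of differentiation named most often below, Actc1 lies at chr2:113876266-113884043 and Ttn at chr2:76534136-76812891, both on the minus strand, and Mylpf at chr7:126807207-126813470 on the plus strand.

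Promoter windows of 5 genes are shown because Myog, Actc1, Mylpf, Tnnt2 and Chrna1 belong to the differentiation program that varied most between the myoblasts, and they were chosen after their values were seen. Each window runs from 250 bases before to 50 after a transcription start of the RefSeq table (GRCm38.p6) and was found base for base at 1 place in GRCm39, whose coordinates are given. Every match to CANNTG is in capitals, and the sequence is written 5′ to 3′ on the strand of the gene.
Myog (chr1:134217492-134217791, plus strand): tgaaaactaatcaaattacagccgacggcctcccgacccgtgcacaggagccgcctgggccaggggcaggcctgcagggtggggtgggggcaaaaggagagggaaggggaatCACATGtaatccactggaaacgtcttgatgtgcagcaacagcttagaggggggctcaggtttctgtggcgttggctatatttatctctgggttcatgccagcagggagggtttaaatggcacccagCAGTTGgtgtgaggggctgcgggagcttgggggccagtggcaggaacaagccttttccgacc
Actc1 (chr2:113883307-113883606, minus strand): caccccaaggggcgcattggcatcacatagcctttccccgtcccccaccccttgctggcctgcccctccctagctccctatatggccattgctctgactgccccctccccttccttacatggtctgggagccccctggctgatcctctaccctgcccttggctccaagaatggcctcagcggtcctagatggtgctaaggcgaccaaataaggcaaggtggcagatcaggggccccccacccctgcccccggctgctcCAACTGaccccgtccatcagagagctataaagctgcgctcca
Mylpf (chr7:126810530-126810829, plus strand): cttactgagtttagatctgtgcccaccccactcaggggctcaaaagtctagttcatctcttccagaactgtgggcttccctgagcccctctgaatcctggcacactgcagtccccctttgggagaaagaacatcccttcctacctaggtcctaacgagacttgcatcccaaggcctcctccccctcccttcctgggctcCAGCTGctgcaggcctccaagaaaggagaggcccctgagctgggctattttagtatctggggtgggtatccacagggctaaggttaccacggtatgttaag
Tnnt2 (chr1:135763822-135764121, plus strand): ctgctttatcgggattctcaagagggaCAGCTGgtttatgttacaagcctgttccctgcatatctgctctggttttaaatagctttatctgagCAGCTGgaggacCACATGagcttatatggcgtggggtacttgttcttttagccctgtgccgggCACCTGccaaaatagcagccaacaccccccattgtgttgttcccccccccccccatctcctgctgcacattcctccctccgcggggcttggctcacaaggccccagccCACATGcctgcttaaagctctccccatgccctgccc
Chrna1 (chr2:73410633-73410932, minus strand): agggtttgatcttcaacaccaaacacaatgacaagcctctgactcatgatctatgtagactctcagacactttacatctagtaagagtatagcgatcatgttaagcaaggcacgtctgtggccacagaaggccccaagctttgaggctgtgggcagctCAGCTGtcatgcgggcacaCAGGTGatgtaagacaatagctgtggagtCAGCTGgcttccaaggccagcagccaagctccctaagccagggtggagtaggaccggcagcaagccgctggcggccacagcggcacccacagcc
The Myog window holds CANNTG at positions -138 and -12 from the start, and the Actc1 window holds it at position 8. The Mylpf window has 1 match, the CAGCTG form, at -51. The Tnnt2 window shown holds 5 matches, and a second Tnnt2 window of the table, not shown, holds 2. The Chrna1 window holds 3, at -92, -73 and -44, of which 2 are CAGCTG and 1 reads CAGGTG on one of the strands. Matches were searched on both strands, and CANNTG includes both other forms. Among genes at least 2-fold higher in myoblasts than in progenitors, 79 of 110 had an entry, with 123 windows, and 30.1% of these held CAGCTG. The share was 16.2% of 37 windows of the genes at least 2-fold lower , 13.4% of the 7243 windows of all genes compared and 16.3% of all 32851 windows. CAGGTG was found in 22.0% of the windows of the higher genes, 13.5% of those of the lower genes, 14.9% of those of all genes compared and 20.2% of all windows. The general form CANNTG was found in 78.0%, 62.2%, 60.0% and 72.3% in the same order. These are matches of letters in a fixed window, not measured binding.

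Almost all of the cells came from dual-enSERT-1, where myoblasts made up 0.978% of kept cells (0.839 to 1.13). In dual-enSERT-2 the share was 0.0150% (0.000379 to 0.0833). Progenitors, in contrast, were 1.85% (1.66 to 2.06) and 1.15% (0.910 to 1.44) of kept cells. Kept cells with at least 10% globin UMIs were 327 of 17790 in dual-enSERT-1 and 1831 of 6683 in dual-enSERT-2. This lowers the shares of kept cells in dual-enSERT-2 relative to dual-enSERT-1. Of myoblasts and progenitors together, 34.6% were myoblasts in the first library (30.4 to 38.9) and 1.28% in the second (0.0325 to 6.94). Progenitors had a median of 23670 UMIs in the first library and 30062 in the second. When every cell was thinned to 5000 UMIs before the rule was applied, 66 of 295 cells were myoblasts in dual-enSERT-1, or 22.4% (17.7 to 27.6). In dual-enSERT-2 it was 0 of 52 (0 to 6.85%), where the floor of 3 counts is a share of 5.77%.

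The threshold was met narrowly by many cells. In dual-enSERT-1, 43 myoblasts held exactly 2 UMIs of Myod1 and Myog together, 25 held 3 and 86 held 5 or more, whereas 148 otherwise eligible cells held exactly 1 and were left out, 81 of which had at least 3 UMIs of Pax3, Pax7 and Lbx1. The myoblasts had between 2581 and 91110 UMIs, with a median of 26668.5 UMIs and 5874.5 genes. Libraries held 298653282 UMIs in 20508 barcodes and 184301053 UMIs in 8885 barcodes. The libraries shared 49 barcode sequences, 29 of them kept in both libraries, and no myoblast was among the 49. The doublet caller Scrublet marked 36 of the 174 myoblasts (20.7%, 14.9 to 27.5) and 84 of the 329 progenitors (25.5%, 20.9 to 30.6), against 9.83% of all kept cells of that library. The marked cells were kept. Without them 69 of the gene folds and 5 of the list medians against progenitors moved, among them thin filament to a median log2 of 3.29 and Z-disc, titin and assembly to 1.87. Between Myog ranges 34 folds and 7 medians moved, among them thin filament to 2.91 and neuromuscular junction to 2.27.

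Most myoblasts had Myod1 without Myog. Of the 174, 92 held Myod1 alone (52.9%, 45.2 to 60.5), 80 held both (46.0%, 38.4 to 53.7) and 2 held Myog alone. Myod1 counts ran from 0 to 34 UMIs per cell with a median of 4, and Myog counts from 0 to 103 with a median of 0. The cells were therefore described in 3 ranges of Myog: 92 Myog-negative cells, 32 Myog-low cells with 1 or 2 UMIs, and 50 Myog-high cells with 3 or more. These ranges are a count cut at a point and are not cell types. Median depth was 28014 UMIs in the Myog-negative, 23738 in the Myog-low and 21956 in the Myog-high cells, so the Myog-high cells were the shallowest. Myod1 itself had a median of 3 UMIs (2 to 14) in Myog-negative cells and 11 (1 to 34) in Myog-high cells. The ranges overlap between 2 and 14 UMIs. A myoblast without Myog must hold at least 2 Myod1 UMIs by the rule, so that lower end was set by the selection.

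**Figure D1:**
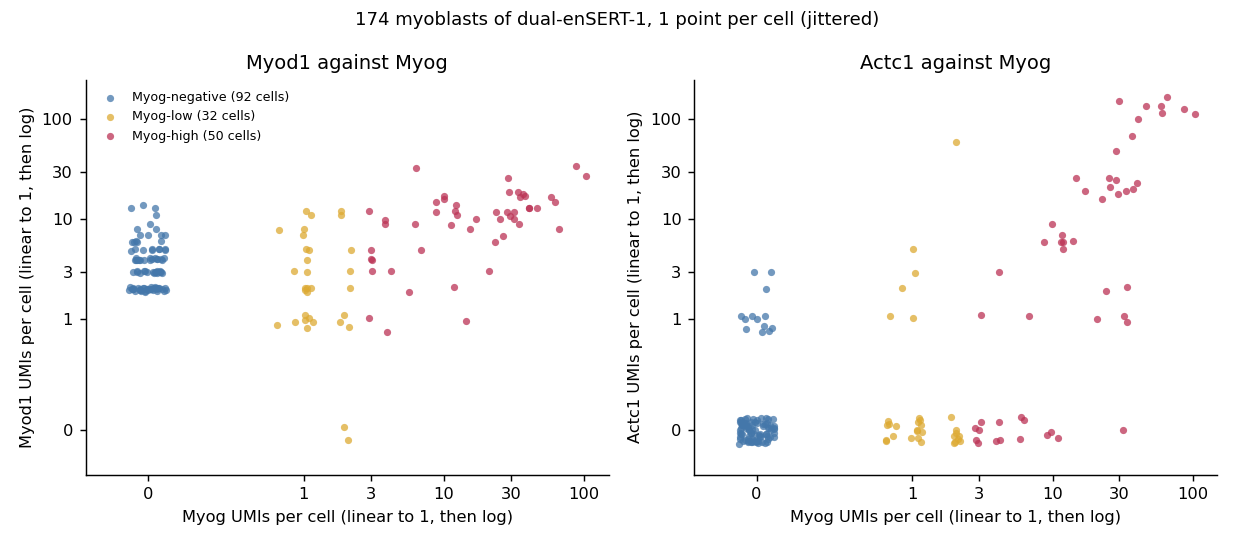
Myod1 (left) and Actc1 (right) UMIs per cell against Myog UMIs for the 174 myoblasts of dual-enSERT-1, 1 jittered point per cell, with both axes linear to 1 and logarithmic above, coloured by Myog range. Cells with 3 or more Myog UMIs reach 169 Actc1 UMIs, whereas no Myog-negative cell has more than 3.

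Most of these cells also held progenitor transcription factors. Of the 174 myoblasts, 141 held at least 3 UMIs of Pax3, Pax7 and Lbx1 (81.0%, 74.4 to 86.6) and so met the progenitor threshold on these genes as well, and 14 held none. The share with at least 3 was 87 of 92 Myog-negative cells (94.6%, 87.8 to 98.2), 27 of 32 Myog-low cells (84.4%, 67.2 to 94.7) and 27 of 50 Myog-high cells (54.0%, 39.3 to 68.2). Pax3 had a median of 8 UMIs (0 to 39) in Myog-negative, 5 (0 to 18) in Myog-low and 1 (0 to 17) in Myog-high cells. The cell ranges overlap, and pooled Pax3 was 330 CPM, 241 CPM and 82.7 CPM. Lbx1 was 87.7, 88.9 and 58.0 CPM in the same order. Pax7, the factor of later muscle stem cells, was seen in 20 myoblasts, with at most 4 UMIs in a cell.

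The label of committed myoblasts was checked against Actc1, Ttn and Myf5, which the rule did not read. Actc1, the cardiac alpha-actin that embryonic skeletal muscle also uses, was found in 54 of 174 cells and Ttn, the giant spring of the sarcomere, in 65. Per cell, Actc1 ran from 0 to 169 UMIs with a median of 0, and 77.2% of its UMIs came from 10 cells. After thinning to 5000 UMIs, Actc1 was found in 18.3% of myoblasts (of 169 deep enough), 2.48% of progenitors and 0.0674% of mesenchyme. Ttn was found in 20.1%, 1.86% and 0.135%. By Myog range, thinned Actc1 was found in 2.20% of Myog-negative, 6.67% of Myog-low and 54.2% of Myog-high cells. For Ttn these shares were 5.49%, 13.3% and 52.1%. After thinning, the Actc1 share of the Myog-negative cells was not above that of the progenitors. These shares rest on 2 of 91 cells (0.267 to 7.71) and 8 of 323 cells (1.08 to 4.82). Pooled over unthinned cells, Actc1 was 6.39 CPM in Myog-negative cells and 3.22 CPM in progenitors. Without thinning, the shares with an Actc1 UMI were 31.0% of myoblasts, 14.1% of Myog-negative cells, 6.69% of progenitors and 0.268% of mesenchyme. Median depths were 26668.5, 28014, 23670 and 15018 UMIs in the same order. Myf5 went the other way, with 43.7 CPM in myoblasts and 67.0 CPM in progenitors (ratio 0.652, 0.555 to 0.763).

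A set of 10 genes of differentiation were followed cell by cell: Actc1, Ttn, Mymx, Chrm3, Mylpf, Tnnt2, Mymk, Myl1, Neb and Klhl41. They were picked after their levels were seen, and 1 UMI counts as held, without thinning. By the same count 2 of 329 progenitors and 0 of 12314 mesenchymal cells held 5 or more, while 196 progenitors held none. Of 327 erythroid cells, taken as kept barcodes with at least 10% globin UMIs, 2 held 5 or more. Both were also myoblasts of the rule, with 15.9% and 21.1% globin, because the erythroid group did not leave myoblasts out. A myoblast held between 0 and 10 of these 10 genes with a median of 2, 40 cells held none and 41 held 5 or more. Myog-negative cells held a median of 1 (0 to 7), Myog-low cells 2 (0 to 10) and Myog-high cells 7 (0 to 10). Those with 5 or more were 4 of 92, 5 of 32 and 32 of 50. Actc1, Ttn and Mymx were found together in 27 cells, 26 of them Myog-high, 1 Myog-low and 0 Myog-negative. The ranges overlap at both ends. A Myog-low cell with 2 Myog UMIs and 59 of the group's 71 Actc1 UMIs held all 10 genes (without it the group's Actc1 was 14.9 CPM), and 3 Myog-high cells held none.

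In the comparison with progenitors, 7095 genes reached 20 CPM in either group of dual-enSERT-1. A gene was counted as past the fold at 2-fold or more on the log2(CPM + 1) scale, and 110 genes were higher (1.55%) and 35 lower (0.493%). Within the myoblasts, 7165 genes were compared between Myog-high and Myog-negative cells, with 313 higher (4.37%) and 107 lower (1.49%). These counts include the genes that chose the cells and carry no test. The cells of both groups in each comparison come from 1 library. Over all genes measured at 5 CPM, the median log2 difference was -0.06 and -0.05 in these comparisons. Without the Scrublet doublets the counts were 145 higher and 44 lower, and 419 higher and 227 lower.

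Genes of the thin filament, the actin part of the sarcomere, were mostly higher in myoblasts. Of the 11 compared, 8 were at least 2-fold higher and 0 lower, and the median log2 over the 13 measured was 2.98. Actc1 was 304 CPM in myoblasts and 3.22 CPM in progenitors, a 94.6-fold ratio (64.8 to 144). Within the myoblasts it was 6.39 CPM in Myog-negative, 86.4 in Myog-low and 1043 in Myog-high cells, and the Myog-high level was 163 times the Myog-negative level (103 to 276). Tnnt2, the troponin T of heart and early skeletal muscle, was 33.9 CPM in myoblasts and 0.596 CPM in progenitors. It had 1 UMI in Myog-negative cells and was 118 CPM in Myog-high cells. Tnnc1, the calcium-binding troponin C of slow muscle, was 30.3 and 1.43 CPM, and 97.9 CPM in Myog-high against 1.42 CPM in Myog-negative cells. Acta2, the smooth muscle actin that early skeletal muscle shares, was 227 and 19.4 CPM (11.7-fold, 9.93 to 13.9). It was found in 99 of the 174 myoblasts, against 54 for Actc1.

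Some thin filament genes were already present in the progenitors. The tropomyosins Tpm1 and Tpm2, which lie along actin, were 1187 and 730 CPM in myoblasts and 813 and 398 CPM in progenitors, both under 2-fold. In mesenchyme they were 142 and 37.5 CPM. Tnnt1, the slow troponin T, was 282 CPM in myoblasts, 92.6 in progenitors and 1.78 in mesenchyme. It was 119 CPM in Myog-negative, 253 in Myog-low and 633 in Myog-high cells. The summed level of all 20 thin filament genes was 1634 CPM in progenitors, 1993 in Myog-negative, 2861 in Myog-low and 5884 in Myog-high cells, a higher sum at each step. Between Myog-high and Myog-negative cells 11 of 13 thin filament genes were at least 2-fold higher, 0 lower, with a median of 3.18 over the 16 measured. Lmod3, which nucleates actin filaments, had 0 UMIs in the Myog-negative cells and was at least 32.7-fold higher in Myog-high cells, taking 3 counts over the group as the floor. Nebulin, the thin filament ruler encoded by Neb, was 141 CPM in Myog-high and 12.4 CPM in Myog-negative cells.

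The thick filament genes summed to 274 CPM in progenitors, 250 in Myog-negative, 319 in Myog-low and 1208 CPM in Myog-high cells. Mybpc1, a myosin-binding protein C, was 251 CPM in progenitors and 208, 203 and 185 CPM across the Myog ranges, and so made up most of the sum where the sum was low. Mylpf, the fast regulatory light chain, was 201 CPM in myoblasts and 8.94 CPM in progenitors (22.5-fold, 17.8 to 28.9), and Myl1, the fast essential light chain, was 78.4 and 5.72 CPM (13.7-fold, 10.1 to 18.9). Across the Myog ranges Mylpf was 15.6, 52.3 and 670 CPM. In Myog-low cells 1 cell held 26 of the 43 Mylpf UMIs, and without it the level was 21.2 CPM. Per cell Mylpf had a median of 3 UMIs (0 to 158) in Myog-high cells against 0 (0 to 6) in Myog-negative cells. The cell ranges overlap because 11 Myog-high cells had none. Embryonic myosin heavy chain, Myh3, was 18.1 CPM, from 91 UMIs in 26 cells, against 2 UMIs in progenitors. It was 61.7 CPM in Myog-high and 1.42 CPM in Myog-negative cells. Of 3 thick filament genes compared with progenitors 2 were past 2-fold, both higher, and the median over 6 measured genes was 3.18, or 3.76 with Mybph at its lower bound. Between Myog ranges it was 3 of 4, all higher, with a median of 3.42 over 8.

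Genes of the Z-disc, of titin and of sarcomere assembly had a median log2 of 1.56 over 16 measured genes against progenitors, with 4 of 7 at least 2-fold higher and 0 lower. Between Myog ranges 12 of 14 were higher and 1 lower, with a median of 2.35 over 20. The lower one was Fhl1, a LIM-domain protein, at a log2 of -1.40. Ttn was 150 CPM in myoblasts and 5.25 CPM in progenitors (28.6-fold, 21.1 to 39.7), and 17.0, 42.6 and 486 CPM across the Myog ranges, with 24.9 CPM in Myog-low cells without the cell that held 15 of their 35 UMIs. In single Myog-high cells Ttn had a median of 5 UMIs (0 to 90), and in Myog-negative cells 0 (0 to 11). Klhl41, which stabilises nebulin, was 34.3 CPM in myoblasts and 2.26 CPM in progenitors. Desmin, the muscle intermediate filament encoded by Des, was 27.7 and 7.03 CPM. Unc45b, the myosin chaperone, was seen in 10 myoblasts and had 0 UMIs in progenitors and in Myog-negative cells. Smyd1, a methyltransferase needed for myofibril assembly, was 38.5 CPM in Myog-high cells and had 1 UMI in Myog-negative cells.

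**Figure D2:**
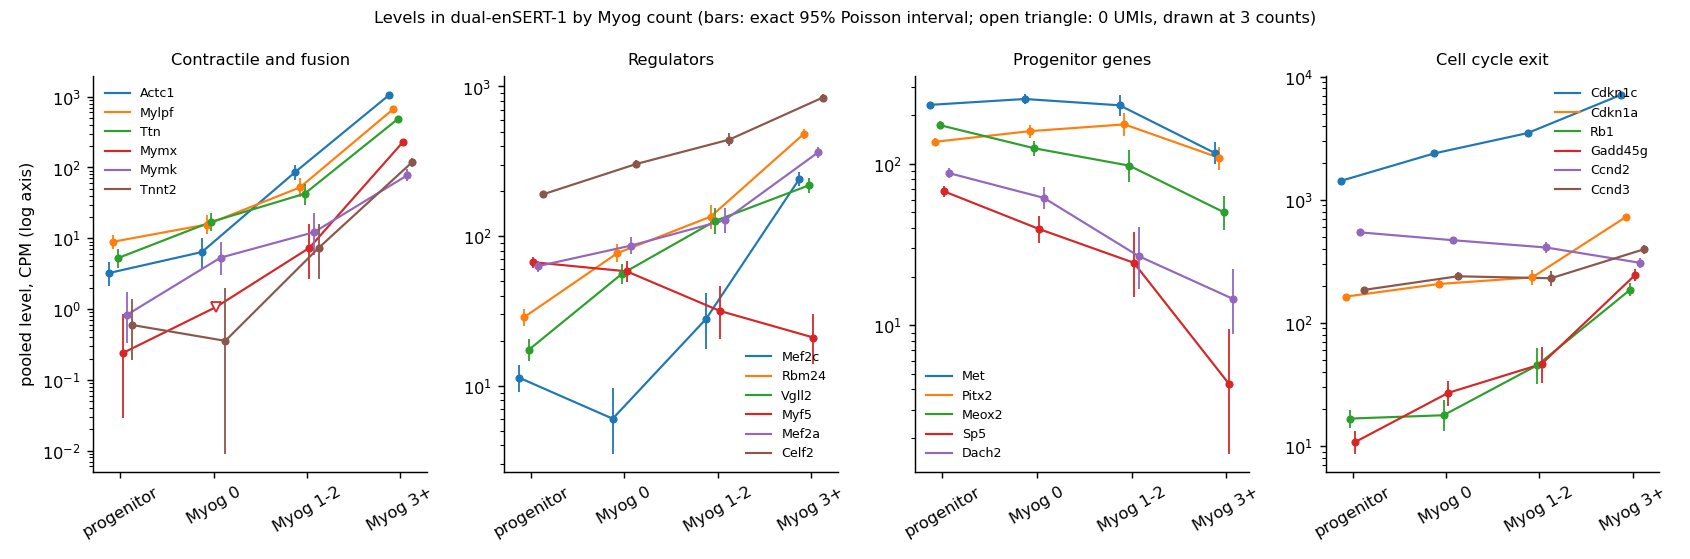
Pooled levels in CPM (log axis) of named genes in progenitors and in myoblasts with 0, 1 or 2, and 3 or more Myog UMIs in dual-enSERT-1, with exact 95% Poisson intervals; open triangles mark 0 UMIs drawn at the floor of 3 counts. Actc1, Mylpf and Ttn reach 1043, 670 and 486 CPM in the Myog-high cells, whereas Met is 252 CPM in the Myog-negative and 117 CPM in the Myog-high cells.

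Genes of cell fusion differed between the Myog ranges. Mymx (myomixer), a small membrane protein required for myoblast fusion, had 318 UMIs in 32 myoblasts and 2 UMIs in the progenitors, a ratio of 266 (73.0 to 2205). Its levels were 0 CPM in the 92 Myog-negative cells, 7.30 CPM in Myog-low and 226 CPM in Myog-high cells, at least 212-fold higher than the floor of 3 counts in the Myog-negative cells. Among Myog-high cells 30 of 50 held Mymx, with a median of 2 UMIs and a highest count of 41. Mymk (myomaker), its partner in fusion, was 26.3 CPM in myoblasts and 0.834 CPM in progenitors (31.5-fold, 14.9 to 80.0). Unlike Mymx it was found in Myog-negative cells, at 5.33 CPM in 10 cells, and was 77.6 CPM in Myog-high cells.

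Other adhesion molecules differed in direction. Of 15 adhesion and fusion genes compared with progenitors 3 were higher and 0 lower, with a median of 0.06 over 19. The 3 were Mymx, Mymk and Cdh15, and the median is close to the -0.06 of all genes. Cdh15 (M-cadherin), the cadherin of muscle cells, was 79.4 and 26.9 CPM in myoblasts and progenitors and 0.137 CPM in mesenchyme. Jam3, a junctional adhesion molecule, was 44.7 CPM in Myog-negative and 180 CPM in Myog-high cells (4.02-fold, 3.23 to 5.02). Kirrel3, an immunoglobulin-family adhesion protein, was 102 CPM in myoblasts and 103 in progenitors, and 135 CPM in Myog-negative, 108 in Myog-low and 30.5 CPM in Myog-high cells. The ratio of Myog-high to Myog-negative was 0.225 (0.160 to 0.310), and 1 cell held 45.2% of the Myog-high UMIs. N-cadherin (Cdh2) and the co-receptors Boc and Cdon, which signal from cell contact in muscle, were 89.2, 51.5 and 34.1 CPM in Myog-high cells and 139, 96.2 and 57.9 CPM in Myog-negative cells.

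Genes of the nerve-muscle contact were present at low level. Chrna1, the alpha subunit of the acetylcholine receptor, was 16.1 CPM in myoblasts and had 2 UMIs in progenitors. It was 1.42, 9.74 and 50.1 CPM across the Myog ranges, found in 25 of 50 Myog-high cells. The receptor's fetal gamma subunit, Chrng, was 22.5 CPM in Myog-high and 1.42 CPM in Myog-negative cells. Rapsn (rapsyn), which clusters the receptor, was 26.1 and 10.3 CPM (2.54-fold, 1.51 to 4.29). All 3 neuromuscular junction genes compared between Myog ranges were at least 2-fold higher, with a median log2 of 1.72 over 9 measured. Against progenitors the median was 1.32 over 8 measured (0.15 where the rule took 1 UMI of Myod1 and Myog), and the 1 gene compared, Agrn (agrin, the nerve signal that gathers the receptor), was 14.0 against 22.2 CPM. Chrm3, a muscarinic acetylcholine receptor, is not in the neuromuscular junction list. It had 291 UMIs in 28 myoblasts and 2 UMIs in progenitors, a ratio of 243 (66.8 to 2019). It had 1 UMI in Myog-negative cells and was 202 CPM in Myog-high cells, where 26 of 50 held it.

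Calcium handling genes were higher in part. Atp2a1, the calcium pump of fast muscle, was 41.1 CPM in myoblasts and 11.8 CPM in progenitors (3.48-fold, 2.73 to 4.47). Ryr1, the calcium release channel, was 45.5 and 19.3 CPM (2.35-fold, 1.92 to 2.90). Both were higher again in Myog-high than in Myog-negative cells, at 102 against 14.6 CPM and 82.7 against 31.3 CPM. Of 9 genes of calcium release and the muscle membrane compared with progenitors 3 were higher (Atp2a1, Ryr1 and Fitm1) and 0 lower (median 0.44 over 13), and of 10 compared between Myog ranges 5 were higher (these 3, Cacna2d1 and the dystrophin gene Dmd; median 1.13 over 17).

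**Figure D3:**
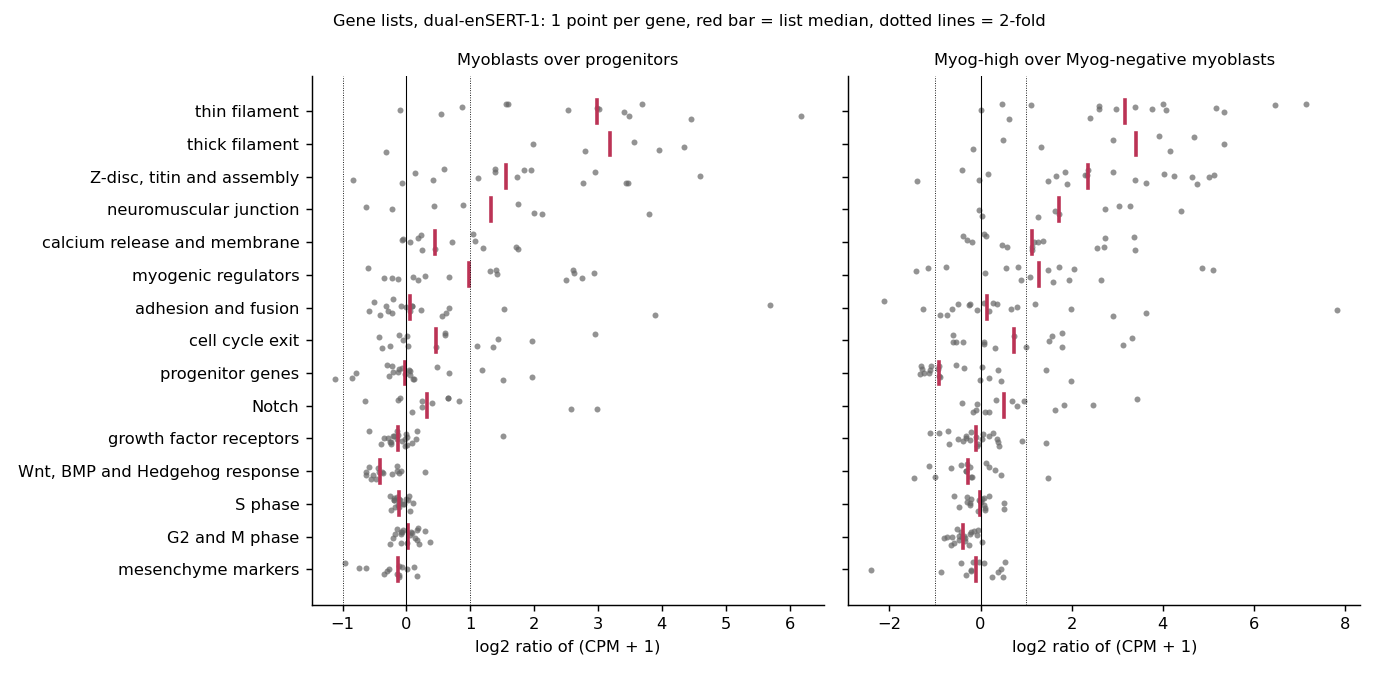
Log2 ratios of CPM + 1 in dual-enSERT-1 for the measured genes of 15 lists, 1 point per gene, in myoblasts over progenitors (left) and in Myog-high over Myog-negative myoblasts (right); red bars are list medians and dotted lines mark 2-fold. The thin filament has medians of 2.98 and 3.18, whereas S phase has -0.12 and -0.02 and G2 and M phase 0.03 and -0.39.

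Regulators of the muscle program were also higher in part. Of 14 compared with progenitors 6 were at least 2-fold higher and 0 lower (median 0.99 over 16), and between Myog ranges 9 of 16 were higher and 2 lower, Myf5 and Mbnl3 (median 1.28). Mef2c, a MADS-box factor that works with the myogenic factors, was 74.4 CPM in myoblasts and 11.3 CPM in progenitors (6.57-fold, 5.23 to 8.32). Most of it was in Myog-high cells, at 242 CPM against 6.04 CPM in Myog-negative cells (40.02-fold, 24.6 to 69.5). Mef2a was present throughout, at 86.7, 128 and 363 CPM across the Myog ranges and 63.1 CPM in progenitors.

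Several regulators were above the progenitor level also in cells with no Myog UMI. Rbm24, an RNA-binding splicing regulator of muscle, was 28.7 CPM in progenitors, 77.1 in Myog-negative, 135 in Myog-low and 484 in Myog-high cells. Vgll2, a cofactor of TEAD factors, was 17.4, 56.1, 127 and 218 CPM along the same order. Lincmd1, a muscle long noncoding RNA, was 6.20, 19.2, 54.8 and 394 CPM. For these 3 genes the level was higher in each range than in the one before, and neighbouring ranges were not tested against each other. Over all myoblasts Rbm24 was 6.91-fold (5.99 to 7.98), Vgll2 was 6.45-fold (5.37 to 7.79) and Lincmd1 was 20.6-fold (15.6 to 27.9) above progenitors. Myf5 was 67.0, 58.2, 31.7 and 21.0 CPM in that order, so it was lowest where Myog was highest. Myf6, the last of the myogenic factors to appear in development, did not reach 5 CPM in either comparison.

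Of 10 genes of cell cycle exit compared with progenitors 5 were at least 2-fold higher in myoblasts and 0 lower. The median log2 was 0.46 over 15 measured, of which 10 were above 0 and 5 below. Cdkn1c (p57), an inhibitor of cyclin-dependent kinases, was 1421 CPM in progenitors, 2376 in Myog-negative, 3474 in Myog-low and 7097 in Myog-high cells, and 808 CPM in mesenchyme. Cdkn1a (p21), a related inhibitor, was 163, 207, 234 and 721 CPM and 1.96 CPM in mesenchyme. Rb1, the retinoblastoma protein that holds cells out of S phase, was 17.8 CPM in Myog-negative and 186 CPM in Myog-high cells (interval of the ratio 7.70 to 14.5). Gadd45g and Btg2, which restrain proliferation, were 244 and 120 CPM in Myog-high against 27.0 and 33.7 CPM in Myog-negative cells.

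The 3 D-type cyclins were each under 2-fold between Myog ranges and are named after their values were seen. Ccnd1 and Ccnd2, D-type cyclins of dividing cells, were 133 and 308 CPM in Myog-high and 203 and 469 CPM in Myog-negative cells. Ccnd3, the D-type cyclin retained in differentiating muscle, was 396 and 239 CPM. None of the 19 S phase genes or the 20 genes of G2 and M phase was past 2-fold in either comparison. Of all genes compared, 1.55% were higher and 0.493% lower against progenitors, and 4.37% and 1.49% between Myog ranges. Lists of this size would thus hold few such genes. Against progenitors the medians of S phase and of G2 and M phase were -0.12 and 0.03. Within the myoblasts the S phase median was -0.02, whereas that of G2 and M phase was -0.39, with 19 of 20 genes below 0. The summed level of the G2 and M genes was 3572 CPM in Myog-negative (3502 to 3642), 3785 in Myog-low (3653 to 3920) and 2700 in Myog-high cells (2614 to 2789). It was 3289 CPM in progenitors and 3936 in mesenchyme. Top2a, the topoisomerase of dividing cells, was 668 CPM in Myog-negative and 444 CPM in Myog-high cells (ratio 0.664, 0.605 to 0.728). Transcripts of dividing cells were thus still present in the pooled Myog-high cells. Of these 50 cells, 8 were marked as doublets and 12 held at least 3 UMIs of Prrx1 and Prrx2. Over the processing alternatives the G2 and M median between Myog ranges ran from -0.87 to -0.15.

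Progenitor genes differed in direction. Eya4, a transcriptional coactivator of the network upstream of the myogenic factors, was 155 CPM in myoblasts and 151 CPM in progenitors (ratio 1.03, 0.940 to 1.13), and 136, 167 and 187 CPM across the Myog ranges. Met, Msc, Meox2, Eya1, Ebf3 and Etv4 were at least 2-fold lower in Myog-high than in Myog-negative cells. Met, the receptor for the migration signal Hgf, was 232 CPM in progenitors and 252, 230 and 117 CPM across the Myog ranges (Myog-high over Myog-negative 0.464, 0.388 to 0.551). Meox2, a homeobox factor of limb muscle, was 173.6 CPM in progenitors and 125, 97.4 and 50.1 CPM. Fgfr4, Pitx3 and Sox8 were higher in myoblasts, with the growth factor receptor Fgfr4 at 53.4 against 18.1 CPM (2.95-fold, 2.41 to 3.62), the homeobox gene Pitx3 at 35.5 against 15.02 CPM and Sox8 at 20.5 against 4.53 CPM. Of 16 progenitor genes compared with progenitors 3 were higher and 0 lower, and of 15 compared between Myog ranges 2 were higher and 6 lower, with a median of -0.90 over 20. Thinning gave the same order for Met, found in 63.7% of Myog-negative, 60.0% of Myog-low and 37.5% of Myog-high cells, against 0.750% of mesenchyme.

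The genes lowest against progenitors lay mostly outside the lists. Gria2, a glutamate receptor subunit, was 10.2 CPM in myoblasts and 55.1 CPM in progenitors (ratio 0.185, 0.135 to 0.247). Gdnf, a neurotrophic factor, was 10.2 and 35.5 CPM, and in Myog-high cells it was 1.45 CPM. Dkk2, a secreted regulator of Wnt signalling, was 12.96 and 51.1 CPM, and Angpt1, a ligand of the vascular receptor Tie2, was 7.58 and 29.3 CPM. Hs6st3, a heparan sulfate sulfotransferase, was 17.9 and 74.6 CPM, and Ntng1, a netrin-related membrane protein, was 18.7 and 61.9 CPM. The remaining genes in the 15 lowest were Ppp2r2b, Cntnap2, Cdh8, Zfpm2, Epha6, Tox, Rel, Negr1 and Tmem132d, with log2 differences from -2.06 (Ppp2r2b) to -1.40 (Tmem132d). Isl1, a LIM homeobox factor of neurons and limb mesenchyme, was 7.98 against 22.6 CPM.

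Within the myoblasts Sp5, a Wnt-responsive zinc finger factor, had the lowest ratio among the genes compared, with 39.4 CPM in Myog-negative and 4.35 CPM in Myog-high cells (ratio 0.110, 0.0397 to 0.248). It was 67.4 CPM in progenitors. Dach2, a nuclear cofactor related to Dach1, was 87.5 CPM in progenitors, 61.4 in Myog-negative, 26.8 in Myog-low and 14.5 in Myog-high cells. Sim2, a bHLH-PAS factor expressed in limb muscle, was 67.4, 60.0, 21.9 and 15.2 CPM. Lgr5, a receptor for R-spondins, was 27.0 CPM in Myog-negative and 5.80 CPM in Myog-high cells, and Slit1, an axon guidance ligand, was 23.1 and 5.80 CPM. The others in the 15 lowest were Grb14, Kcnq5, Kirrel3, Creb5, Epha6, Plk2, Map3k12, Cobll1, Rbp4 and the globin Hbb-bs, from -2.56 (Grb14) to -1.83 (Rbp4). Hbb-bs was at -1.85 and turned to 3.68 without doublets.

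Among the genes that led the Myog-high cells, some are no part of the lists. Il17b, a cytokine of the interleukin-17 family, was 55.1 CPM in Myog-high cells, in 10 cells, and had 0 UMIs in the Myog-negative cells (at least 51.8-fold higher). Cd82, a tetraspanin, was 32.6 CPM and found in 23 of 50 cells, again with 0 UMIs in the Myog-negative cells (at least 30.6-fold higher). Ablim3, an actin-binding protein, was 33.4 CPM (at least 31.3-fold higher). Cryab, a small heat shock protein of muscle, was 42.8 CPM with 1 UMI in Myog-negative cells, and Myo16, an unconventional myosin, was 132 against 3.55 CPM (37.2-fold, 19.8 to 78.8).

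Of the Notch signalling genes 0 of 8 compared were past 2-fold against progenitors (median 0.33 over 12), and 2 of 9 were higher between Myog ranges. Over all genes compared, 1.55% were higher and 0.493% lower against progenitors, and 4.37% and 1.49% between Myog ranges. Counts of 0 or 1 in the lists of this paragraph are therefore close to those shares. The ligands Dll1 and Dner were 43.5 and 32.6 CPM in Myog-high cells and 7.10 and 2.13 CPM in Myog-negative cells, while the target Hey1 and the receptor Notch3 were 18.9 and 71.1 against 19.9 and 79.6 CPM. Of 19 growth factor receptors compared with progenitors 1 was higher, Fgfr4, and the median was -0.14 over 22. Igf1r, the receptor of insulin-like growth factor, was 501 CPM in myoblasts and 500 CPM in progenitors. The Wnt, BMP and Hedgehog response list had a median of -0.41 with 15 of 16 genes below 0, and 0 of 14 compared were past 2-fold. Between Myog ranges 2 of 14 were lower, Gli1 and Nkd2. Gli3, a transcription factor of the Hedgehog pathway, was 146 and 211 CPM (ratio 0.694, 0.636 to 0.757), and Axin2, a Wnt target, was 20.1 and 27.4 CPM. Id1, a BMP target that binds the partners of myogenic factors, was the member above 0, at 196 and 161 CPM.

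Markers of other cell types were read in the same cells. The 15 mesenchyme markers summed to 1826 CPM in myoblasts, 1835 in progenitors and 3977 in mesenchyme, with 0 of the 15 at 0 UMIs in myoblasts. Prrx1, the limb mesenchyme factor, was 179 CPM in myoblasts (72.6 CPM without doublets), 217 in progenitors and 806 in mesenchyme. The mesenchyme was chosen by its counts of Prrx1 and Prrx2, which are among the 15 markers. Its higher Prrx1 level and sum are thus partly set by that choice. Of the myoblasts 54 held at least 3 UMIs of Prrx1 and Prrx2, and 68 held none. Endothelial markers summed to 4.19 CPM and macrophage markers to 1.40 CPM in myoblasts, with 4 of 7 macrophage markers at 0, and these sums leave out the genes of the rule. Cardiac markers summed to 2.59 CPM, with 2 of 6 at 0. Among 7 ectoderm markers the sum was 11.7 CPM in Myog-negative and 60.9 CPM in Myog-high cells, of which Trp63 made 3.20 and 48.6 CPM. Among 6 neural crest and glia markers it was 13.1 and 43.5 CPM, of which Erbb3 made 6.04 and 38.5 CPM. The part of such RNA in the contrasts was not tested, beyond the values without doublets and without Prrx1 or Prrx2 given with the processing.

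Erythroid RNA in 5 barcodes set the globin values. All 7 erythroid markers compared were at least 2-fold higher in myoblasts than in progenitors, at a median of 4.63 over 10. Between 15.9% and 42.1% of the UMIs of 5 myoblast barcodes were globin, and Scrublet marked 4 of these 5. The fifth held 15 Myod1 and 9 Myog UMIs with 21.1% globin. In the other 169 myoblasts globin ran up to 0.155% with a median of 0.0266%. With globin-rich barcodes left out, an alternative chosen after seeing the data, Hbb-y was 147 CPM in myoblasts and 142 CPM in progenitors, against 7637 and 156 CPM with them. The counts of genes past 2-fold were then 106 higher and 30 lower, and 308 higher and 117 lower between Myog ranges.

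In dual-enSERT-2 RNA of Myog, Mymx and Myod1 was scarce over all barcodes as well as in the kept cells. The library held 0 Myog and 0 Mymx UMIs, so 3 counts, or 0.0163 CPM, is the floor, against 1324 and 344 UMIs in dual-enSERT-1. Myod1 had 6 UMIs in 5 barcodes, against 1286 UMIs in 337. Mylpf differed less over all barcodes, with 1174 UMIs in 972 barcodes (6.37 CPM) against 2503 in 1454 (8.38 CPM). Kept cells with at least 10% globin held 55838055 of the 184301053 UMIs of dual-enSERT-2, against 7631328 of 298653282 in dual-enSERT-1. Levels over all barcodes thus include these cells in unlike parts. Pax3 had 1822 UMIs in 125 barcodes, against 6880 in 822. The single myoblast held 2 Myod1 UMIs, 0 Myog, 22 Pax3, 1 Lbx1 and 11 Met UMIs among 35160, and 0 of Actc1, Ttn, Mymx, eGFP and mCherry. Of the 4 cells with 1 Myod1 UMI, 1 held 40 Pax3, 10 Lbx1 and 18 Met UMIs, and the other 3 held no Pax3. Actc1 had 84 UMIs in 7 barcodes, of which 74 were in 1 kept barcode that also held 194 UMIs of Myl7, the atrial myosin light chain, 34 of Tnnt2, 1 of the cardiac factor Nkx2-5 and 0 of Pax3, Myod1 and Myog.

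The progenitors of dual-enSERT-2 also had lower levels of some muscle genes than those of dual-enSERT-1. Pax3 was 609 against 444 CPM and Lbx1 142 against 95.8 CPM, both rule genes. Met was 232 CPM in both. Myf5 was 23.9 against 67.0 CPM (ratio 0.357, 0.270 to 0.463). Msc was 5.69 against 54.0 CPM (0.105, 0.0585 to 0.176), and Fgfr4 was 0.758 against 18.1 CPM, from 2 and 152 UMIs (0.0418, 0.00502 to 0.154). Vgll2 had 1 UMI against 146, and Pitx3 had 0 against 126. Of 22 genes of the thin filament, thick filament and Z-disc lists that reached 5 CPM in either library, the interval of the ratio lay below 1 for 14, above 1 for 2 and held 1 for 6. Tnnt1 was 2.65 against 92.6 CPM (0.0287, 0.0115 to 0.0593) and Tpm1 176 against 813 CPM (0.217, 0.197 to 0.238). Tmod1, at a ratio of 2.83 (1.35 to 5.87), and Des, at 1.62 (1.01 to 2.55), were the ones above 1, and Tpm3 was at 0.942 (0.865 to 1.03). Itga4, an integrin of limb muscle cells, was 12.1 against 113 CPM, and Cdkn1c was 322 against 1421 CPM. In mesenchyme the ratio of the libraries was 1.29 for Tnnt1, 0.668 for Tpm1 and 0.309 for Itga4. It was 0.476 for Fgfr4, 0.122 for Pitx3, 0.465 for Met, 1.58 for Tmod1 and 2.31 for Des. For Myf5 it was 0.0557, with UMIs in 33 and 1 mesenchymal cells. Scrublet marked 84 of 329 progenitors in dual-enSERT-1 and 7 of 77 in dual-enSERT-2. Progenitors with at least 1% globin UMIs numbered 1 and 7. The libraries differ in embryo, construct and preparation, which cannot be told apart.

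**Figure D4:**
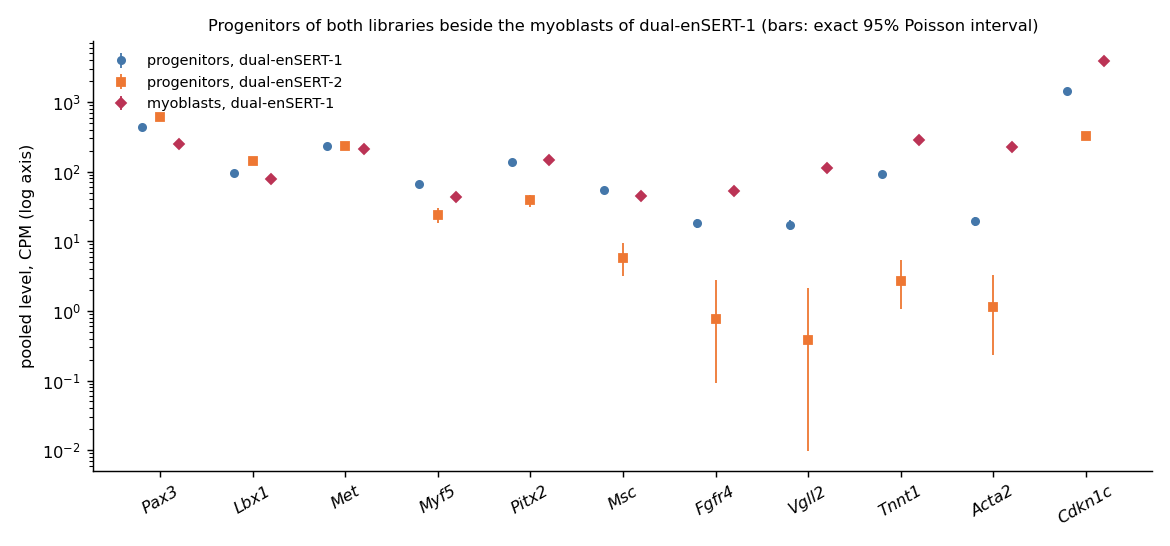
Pooled CPM (log axis) of named genes in the progenitors of dual-enSERT-1 (circles) and dual-enSERT-2 (squares) and in the myoblasts of dual-enSERT-1 (diamonds), with exact 95% Poisson intervals. Met lies at the same level in both libraries, whereas Msc is at 5.69 CPM in dual-enSERT-2 and 54.0 CPM in dual-enSERT-1.

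Reporter RNA was lower in myoblasts than in the mesenchyme, the tissue in which the ZRS works. In dual-enSERT-1 eGFP was 63.4 CPM in myoblasts (318 UMIs) and 151 CPM in mesenchyme, a ratio of 0.419 (0.374 to 0.468), and mCherry was 11.4 and 56.5 CPM, a ratio of 0.201 (0.152 to 0.261). Progenitors had 55.0 CPM eGFP and 19.3 CPM mCherry. Cells with at least 10% globin had 57.1 CPM eGFP and 33.0 CPM mCherry. Of these 327 cells, 80 were marked as doublets, 75 held at least 3 UMIs of Prrx1 and Prrx2, and 5 were also myoblasts of the rule. Hbb-y alone was 312319 CPM in them, which lowers the CPM of their other genes. Whether the reporter RNA of the myoblasts is background was not tested. Without doublets eGFP was 37.3 CPM in myoblasts, a ratio of 0.245 to mesenchyme (0.205 to 0.291), and mCherry was 9.76 CPM (0.169, 0.117 to 0.236). In Myog-high cells eGFP was 86.3 CPM, or 57.4 CPM without doublets, and Prrx1 was 234 and 121 CPM in the same cells. After thinning to 5000 UMIs, 21.3% of myoblasts, 17.0% of progenitors and 27.4% of mesenchyme held an eGFP UMI, against 14.1% of the globin-rich cells. Unthinned, the shares were 55.2%, 55.3%, 49.4% and 52.9% in the same order, at median depths of 26668.5, 23670, 15018 and 21361 UMIs. Shh itself had 5 UMIs in the myoblasts, all in 1 Myog-negative cell, and was 0.997 CPM against 7.80 CPM in mesenchyme.

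**Figure D5:**
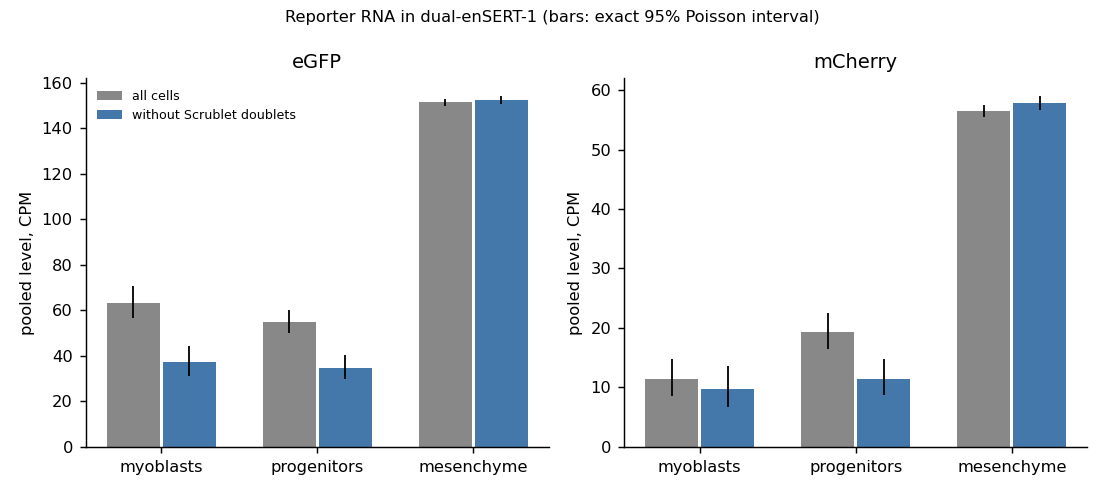
Pooled CPM of eGFP (left) and mCherry (right) in myoblasts, progenitors and mesenchyme of dual-enSERT-1, over all cells (grey) and without Scrublet doublets (blue), with exact 95% Poisson intervals. Myoblast eGFP is 63.4 CPM over all cells and 37.3 CPM without doublets, below mesenchyme in both.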

How the data were processed

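Single-cell RNA was measured with the 10x Genomics 3′ v3.1 kit in 2 libraries of 1 embryo each, with 10000 cells loaded and about 50000 reads per cell per the labels' protocols. The authors deposited raw UMI counts (whole numbers, a gene by barcode matrix) made, per the file headers, with Cell Ranger 7.0.1. In contrast, the submitters' processing notes list Cell Ranger 3.1.0, Seurat 4 and mm39. Whether intronic reads and strand were used is not given in the sources used here. Overlapping genes may therefore share reads.

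Barcodes under 1000 genes (2593 and 1502) or over 10% mitochondrial UMIs (125 and 700) were dropped. Counts were pooled per cell group and divided by all UMIs to give CPM. Folds are log2 ratios with a pseudocount of 1 CPM, and printed ratios have none. Intervals are exact Poisson for levels and Clopper-Pearson for ratios and shares. Mesenchyme was Prrx1 and Prrx2 at least 3 UMIs with no UMI of the muscle rule genes or of Epcam, Cdh5 and Csf1r. Genes were compared at 20 CPM in either group and list members measured at 5 CPM. The rule for names asked for agreement of both libraries, but dual-enSERT-2 had 1 myoblast, so it was applied in dual-enSERT-1 alone. It took up to 15 genes per direction past 2-fold with a counting interval on the same side of 1 and UMIs in at least 3 cells, ranked by fold, plus rule genes, reporters and up to 6 members per list. Other genes were named after their values were seen. The members and the 28 gene lists were chosen with earlier results of these data known. A gene of the lists is not reported here. Doublets were marked by Scrublet. Coordinates are GENCODE M39 on GRCm39. Python 3.11.15, NumPy 2.4.6, SciPy 1.17.1, pandas 2.3.3, Scanpy 1.11.5 and matplotlib 3.10.9 were used, and the scripts were tested on simulated data. Alternatives varied the cell filters, both UMI thresholds, doublets, pooling, depth, scaling, pseudocount, minimum CPM, mesenchymal RNA and, chosen after seeing the data, globin-rich barcodes.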

Additional observations from a re-analysis of the deposited data

How the results depend on the processing

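Of 121 recomputed counts, shares and levels, 75 stayed within 1.5 times or their interval. Of 10638 gene folds 9237 stayed within their interval, 1393 moved and 8 that were past 2-fold turned, and 528 in all crossed 0. Of 797 list medians 655 stayed within 0.25 on the log2 scale, 142 moved and 42 crossed 0. The 42 belonged to 14 combinations of a list and a contrast, none with a median over 0.48 in size as reported. The cause of the values that moved was not tested, except where fewer cells or genes were compared by construction. Against progenitors, the genes at least 2-fold higher and lower were 62 and 18 at a threshold of at least 1 UMI of Myod1 and Myog, 204 and 94 at 5 UMIs, 168 and 125 after thinning, 372 and 245 with no minimum CPM, 59 and 13 at 50 CPM, and 169 and 94 in cells without Prrx1 or Prrx2. Between Myog-high and Myog-negative cells they were 729 and 691 after thinning, 1300 and 1270 with no minimum CPM, 179 and 38 at 50 CPM, 626 and 707 without Prrx1 or Prrx2, and 206 and 32 for at least 1 Myog UMI. The lower count there was 227 without doublets, 225 without doublets and globin-rich barcodes, 188 at 5 UMIs of Myod1 and Myog, 207 at 5 Myog UMIs, 219 for the mean of single cells and 71 at a pseudocount of 5 CPM. The myoblast share of dual-enSERT-1 was 49.5%, 28.5% and 20.7% at thresholds of 1, 3 and 5 UMIs and 41.2% without Prrx1 or Prrx2, and that of dual-enSERT-2 was 0% at 3 and 5 UMIs and without Prrx1 or Prrx2. Myoblast eGFP was 37.3 CPM without doublets, 37.2 without doublets and globin-rich barcodes, 70.8 at 3 UMIs and 52.1 thinned. mCherry was 17.2 at 1 UMI and 15.4 thinned. Shh was 2.53 at 1 UMI and 0 at 3 and 5 UMIs, without doublets, and without doublets and globin-rich barcodes. Reversed folds (log2) were Hbb-bs 3.68 without doublets, Dok7 -0.39 and Fabp3 -0.063 thinned, Hbb-bt -6.47 and Rspo3 -1.14 without Prrx1 or Prrx2, Alas2 -0.47 and Hba-a1 -0.0066 without globin-rich barcodes, and Alas2 -0.69 without these and doublets. The alternatives for myoblasts between libraries were not run, because dual-enSERT-2 had 1 myoblast. No paired analysis was possible because each construct had 1 library. Depth limits the genes with few UMIs per cell, and the number of cells limits every count above.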
